A study of Mustela putorius furo and Mus musculus with 4 samples.

Results

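The genes described here encode selective autophagy receptors, chosen by name around Calcoco2, which differed between ferret and mouse astrocytes in these same libraries. The list held 10 genes (Calcoco2, Calcoco1, Tax1bp1, Sqstm1, Optn, Nbr1, Tollip, Bnip3, Bnip3l and Fundc1). Values of 9 of them were available in both species, among 13373 gene symbols shared by the species, and Bnip3l was available in the mouse alone. The RNA came from primary astrocytes of the cerebral cortex of ferrets at postnatal day 1 (Mustela putorius furo, 2 libraries) and of ICR mice at postnatal day 1 to 3 (2 libraries). Both kinds of culture were grown as mixed glia for 14 days in medium with serum, shaken, and replated in medium with serum. Both were then kept until harvest in serum-free medium that held heparin-binding EGF-like growth factor. No genetic change and no treatment set the groups apart. Cells of a ferret pup filled several flasks, whereas several mouse pups were pooled in a flask. The methods do not say whether the duplicate libraries came from separate cultures, so the spread between them may be technical, and species, culture and genome annotation cannot be told apart.

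Selective autophagy removes particular cargo, such as protein aggregates, damaged mitochondria, stretches of endoplasmic reticulum or invading bacteria. A receptor binds the cargo, often through ubiquitin attached to it, and at the same time binds proteins of the ATG8 family (LC3 and GABARAP) on the growing autophagosome membrane. CALCOCO2, also named NDP52, is such a receptor for bacteria and mitochondria, and in astrocytes receptors of this kind are studied for the clearance of aggregated proteins. The question followed here was whether other receptors stood higher in mouse astrocytes, where Calcoco2 stood at or near 0.

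Levels are given as FPKM, the fragments counted per kilobase of exonic sequence and relative to all mapped fragments of a library, which the authors computed for each gene. FPKM is a level per length, so that genes can be set side by side within a species. The tables used here give FPKM only, and read counts were not used here, so the depth behind each value is not given. Differences are ferret minus mouse on the log2(FPKM + 1) scale, tested with limma over 10204 genes (SE is the standard error of that fit), and a gene was called when its Benjamini-Hochberg adjusted p was under 0.05 and its log2 difference exceeded 1 in size. The shared genes summed to less FPKM in ferret (227391 and 236543) than in mouse (300465 and 308121). The median log2 difference of all genes tested was therefore -0.35 with the values as deposited and -0.01 after each library had been rescaled to the mean of the 4 sums, and values after this rescaling are added where it changed a call or a sign of a named gene or a summary.

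Calcoco2 was the most abundant of the receptor genes in ferret astrocytes and the least abundant in mouse astrocytes. Replicates 1 and 2 of the ferret held 183 and 177 FPKM, those of the mouse 0.0471 and 0, and all pairs of values below keep this order of replicates. The species did not overlap, and the log2 difference of 7.47 is a description only, because the gene was picked for it. It was 10.54 with a pseudocount of 0.1 in place of 1, since the mouse values lie at or near 0. In the ferret, 98.82% to 98.96% of the shared genes had a lower FPKM than Calcoco2. Mouse Calcoco2 occupies chr11:96099326-96111964 of GRCm38 (minus strand), with 6 exonic regions that span 1621 bases and a longest coding sequence of 331 codons in GENCODE. The coding sequence of mouse Tax1bp1, a gene of the same family, has 814 codons in that annotation. The genes whose values over the 4 libraries were nearest to those of Calcoco2, by Euclidean distance on the log2(FPKM + 1) scale, were Cyp26a1, a retinoic acid hydroxylase (distance 0.51), Aldh1a3, which makes retinoic acid (1.04), and Agt, which encodes angiotensinogen (1.46). Since Calcoco2 was picked for its difference, this distance finds other genes high in ferret and low in mouse. Shared regulation was not tested.

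**Figure D1:**
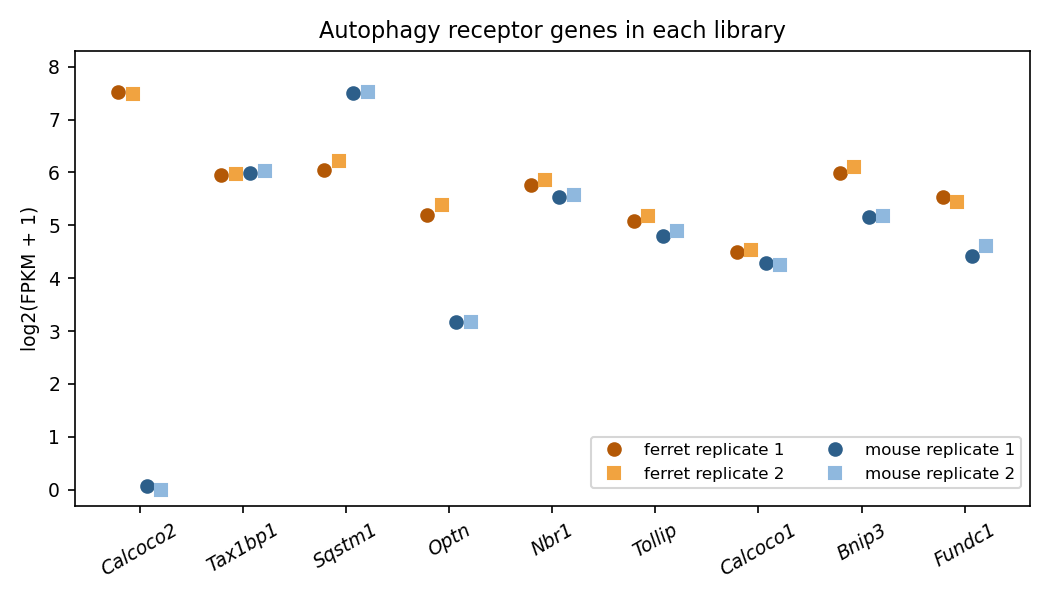
Level of 9 autophagy receptor genes in each library, with the gene on the horizontal axis and log2(FPKM + 1) on the vertical axis; circles and squares are replicates 1 and 2, orange for ferret and blue for mouse. Calcoco2 stood near 0 in both mouse libraries, Sqstm1 was above its ferret level in mouse, Tax1bp1 lay at nearly the same height in all 4 libraries and the remaining receptors were higher in ferret.

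Sqstm1 was the receptor with a higher level in mouse astrocytes. It encodes p62, which binds ubiquitin and gathers ubiquitylated proteins into aggregates for autophagy. Ferret astrocytes held 65.4 and 73.5 FPKM of it, mouse astrocytes 181 and 183. Both mouse libraries lay far above both ferret libraries, with a difference on the log2 scale of -1.38 (SE 0.067, adjusted p = 2.50e-08 by limma). The mean FPKM of Sqstm1 was 112 higher in mouse, while that of Calcoco2 was 180 higher in ferret. After rescaling to the mean library sum the difference was -0.99 (adjusted p = 1.58e-06 by limma), just short of the size required for a call. Mouse Sqstm1 occupies chr11:50199366-50210827 (minus strand) and overlaps Mrnip on the opposite strand. The library protocol keeps strand, but whether the counting used it is not given in the sources used here.

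Tax1bp1, the receptor closest to Calcoco2 in family, showed no such difference as deposited. TAX1BP1 binds ubiquitylated aggregates and carries the same kind of amino-terminal domain as CALCOCO2. It had 60.5 and 61.9 FPKM in ferret and 62.3 and 64.1 in mouse astrocytes. The ferret libraries lay slightly below the mouse libraries, and the log2 difference of -0.05 (SE 0.057, adjusted p = 0.452 by limma) was not past the threshold. Its sign depended on the scaling, and after rescaling to the mean library sum it was 0.34 in the direction of the ferret (adjusted p = 1.75e-04 by limma).

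Optn, in contrast, was higher in ferret astrocytes together with Calcoco2. Optineurin is a ubiquitin-binding receptor of mitochondria and bacteria that is phosphorylated by the kinase TBK1. Ferret astrocytes held 35.4 and 40.5 FPKM of it, mouse astrocytes 7.99 and 8.05. The groups did not overlap, with a difference on the log2 scale of 2.11 (SE 0.075, adjusted p = 2.87e-09 by limma). Of the receptors other than Calcoco2, Optn was the only one called higher in ferret astrocytes as deposited, and it was called under all 12 alternatives tried. It was the lowest receptor in mouse after Calcoco2. The mouse gene occupies chr2:5020642-5064051 (minus strand) and overlaps an antisense gene.

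The remaining ubiquitin-binding receptors, and Calcoco1, differed little. NBR1 binds ubiquitylated aggregates and peroxisomes, TOLLIP links ubiquitylated cargo to autophagy through its CUE domain, and CALCOCO1 is a receptor of the endoplasmic reticulum and Golgi. Nbr1 had 53.2 and 57.2 FPKM in ferret and 45.3 and 46.6 in mouse astrocytes (log2 difference 0.26, SE 0.061, adjusted p = 0.0027 by limma). Tollip had 32.7 and 35.1 in ferret and 26.8 and 28.6 in mouse (log2 difference 0.28, SE 0.065, adjusted p = 0.0023). Calcoco1 had 21.6 and 22.1 in ferret and 18.4 and 18.1 in mouse (log2 difference 0.24, SE 0.061, adjusted p = 0.0035). For these genes each ferret library exceeded each mouse library, and the differences stayed under the limit of 1 for a call, also after rescaling to the mean library sum (0.64 for Nbr1, 0.66 for Tollip and 0.62 for Calcoco1).

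The receptors of the mitochondrial outer membrane also stood higher in ferret astrocytes. BNIP3, BNIP3L and FUNDC1 sit in that membrane, bind ATG8 proteins directly without ubiquitin, and are known from hypoxia. Bnip3 had 62.2 and 67.8 FPKM in ferret and 34.8 and 34.9 in mouse astrocytes, a difference on the log2 scale of 0.88 (SE 0.063, adjusted p = 4.45e-07 by limma). Fundc1 had 45.6 and 42.4 in ferret and 20.5 and 23.5 in mouse astrocytes, a difference on the log2 scale of 0.97 (SE 0.076, adjusted p = 9.10e-07). Neither gene was called with the values as deposited, and both were called after rescaling to the mean library sum, at 1.26 and 1.35. Fundc1 was also called without ferret replicate 2 (1.02) or without mouse replicate 2 (1.06). Mouse Bnip3l stood at 53.3 and 54.8 FPKM, and its ferret level was not analysed here. A mouse gene named as its pseudogene, Bnip3l-ps, had 6.65 and 7.47 FPKM, so that the values of this pair may share reads and are uncertain. The mouse Bnip3 gene overlaps an antisense gene and a processed pseudogene on the opposite strand.

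Of the 8 other receptors tested, 1 was called higher in ferret (Optn) and 1 lower (Sqstm1), against 13.1% and 30.1% of all genes tested. After rescaling to the mean library sum, 3 were called higher (Optn, Bnip3 and Fundc1) and 0 lower, against 19.1% and 21.7% of all genes, with Sqstm1 lower by limma's adjusted p but short in size. With the values as deposited, each ferret library exceeded each mouse library for 6 receptors, and the reverse held for 2 (Sqstm1 and Tax1bp1), against 35.1% and 59.0% of all genes. At an adjusted p under 0.05 alone, 6 receptors were higher and 1 was lower in ferret, against 32.4% and 56.2% of all genes. Their median log2 difference was 0.27, beside -0.35 for all genes tested. As the receptors were named with results of this contrast known, these counts describe them and nothing further is read from them.

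**Figure D2:**
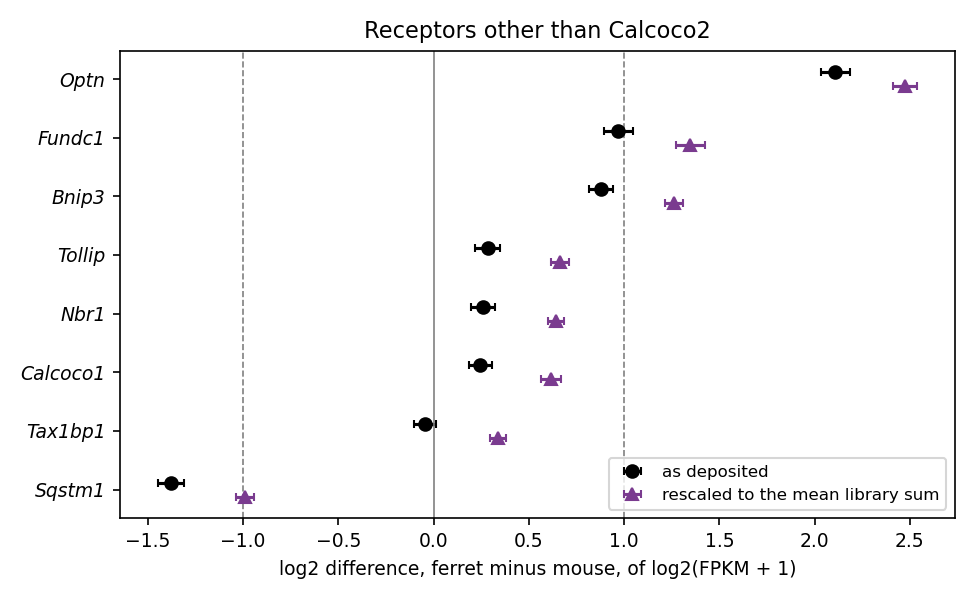
Log2 difference between ferret and mouse astrocytes for the 8 receptors other than Calcoco2, with error bars of 1 standard error from limma; circles are FPKM as deposited, triangles FPKM rescaled to the mean library sum, and dashed lines mark a log2 difference of 1 in size, the limit for a call. Sqstm1 lay at -1.38 and Optn at 2.11 as deposited, and the rescaling moved every receptor towards the ferret.

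The order of the receptors by level differed between the species. In ferret astrocytes Calcoco2 (180 ± 4.48 FPKM, SD, n = 2) was followed by Sqstm1 (69.5 ± 5.67), Bnip3 (65.0 ± 3.96), Tax1bp1 (61.2 ± 0.963), Nbr1 (55.2 ± 2.84), Fundc1 (44.0 ± 2.201), Optn (38.0 ± 3.61), Tollip (33.9 ± 1.70) and Calcoco1 (21.8 ± 0.362). The duplicates of Sqstm1 and Bnip3 overlapped, so that these neighbours are not ordered, and the other neighbours were apart. In mouse astrocytes Sqstm1 (182 ± 1.42 FPKM, SD, n = 2) came first, ahead of Tax1bp1 (63.2 ± 1.30), Bnip3l (54.0 ± 1.10), Nbr1 (45.9 ± 0.965), Bnip3 (34.9 ± 0.0651), Tollip (27.7 ± 1.27), Fundc1 (22.0 ± 2.12), Calcoco1 (18.3 ± 0.2004) and Optn (8.02 ± 0.0413). No neighbours overlapped in the mouse. The leading receptor of each species thus stood at about 180 FPKM as deposited, Calcoco2 in ferret and Sqstm1 in mouse. This likeness depended on the scaling. After rescaling to the mean library sum, Calcoco2 stood at 216 and 201 in ferret and Sqstm1 at 161 and 159 in mouse.

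Ratios within a library do not depend on the scaling between libraries, although the gene models of each species still enter them. Relative to Tax1bp1 in the same library, Calcoco2 stood at 3.03 and 2.86 in ferret and at 0.000756 and 0 in mouse. The ratio of Sqstm1 to Tax1bp1 was 1.08 and 1.19 in ferret and 2.90 and 2.85 in mouse. That of Optn was 0.585 and 0.655 in ferret and 0.128 and 0.125 in mouse. The ratio of Nbr1 to Tax1bp1 was closer between the species, at 0.880 and 0.925 in ferret and 0.727 in each mouse library.

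The other receptors did not add up to the ferret total in mouse astrocytes. The 9 receptors measured in both species summed to 560 and 578 FPKM in ferret and to 397 and 407 in mouse. Without Calcoco2 the sums were 377 and 401 in ferret and 397 and 407 in mouse, a difference of the means (389 ± 16.9 and 402 ± 6.97, SD, n = 2) smaller than the SD of the ferret duplicates. Calcoco2 made up 32.7% and 30.7% of the 9-gene sum in ferret, and Sqstm1 45.6% and 45.0% of it in mouse. Without both Calcoco2 and Sqstm1 the remaining 7 receptors summed to 311 and 327 in ferret and to 216 and 224 in mouse. The near equality of the sums without Calcoco2 held as deposited only: after rescaling to the mean library sum they were 444 and 454 in ferret and 354 in each mouse library.

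Among the soluble ubiquitin-binding receptors the gap was smaller. The 5 of them other than Calcoco2 (Tax1bp1, Sqstm1, Optn, Nbr1 and Tollip) summed to 247 and 268 FPKM in ferret and to 323 and 330 in mouse, which was higher in mouse by 69.0 FPKM on average. With Calcoco2 the sums were 431 and 445 in ferret and 323 and 330 in mouse. Sqstm1 was the only one of the 5 called higher in mouse, and this excess depended on the scaling. After rescaling to the mean library sum the 5 genes summed to 292 and 304 in ferret and to 288 and 287 in mouse. Under that scaling the 9 receptors with Calcoco2 summed to 660 and 655 in ferret and to 354 in each mouse library, a ratio of 1.86, beside 1.41 as deposited. Sums over chosen genes carry no test, and they describe RNA, not protein. By western blot of cultures kept in serum, the paper found more CALCOCO2 protein in ferret than in mouse astrocytes. It blotted none of the other receptors.

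**Figure D3:**
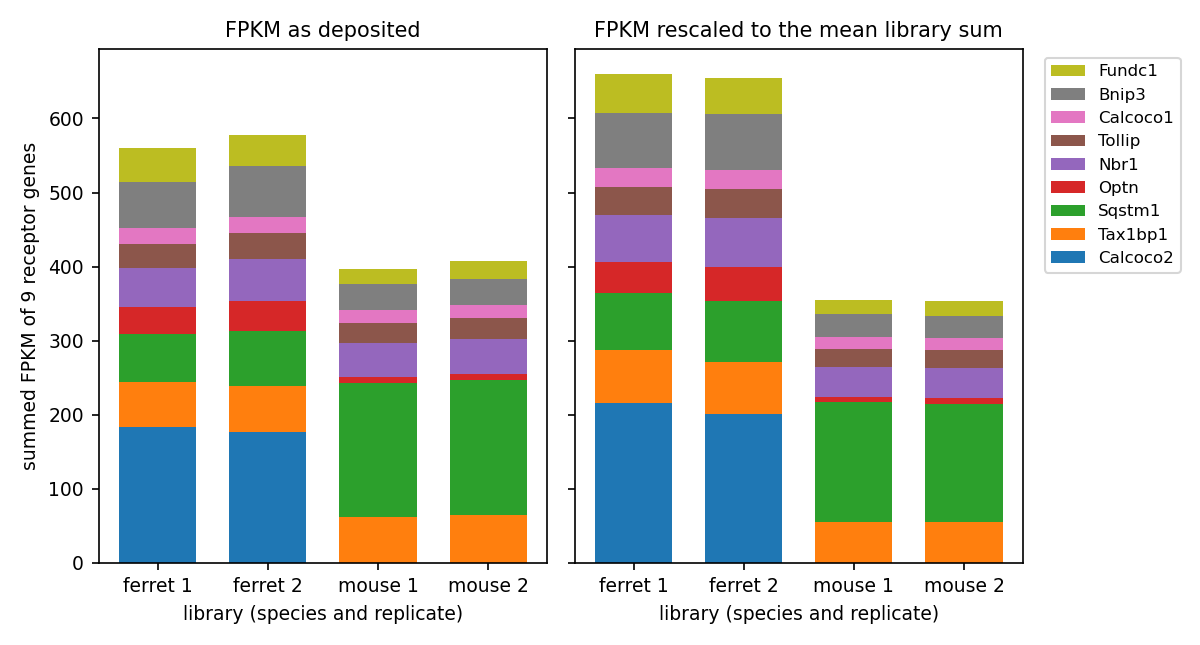
Summed FPKM of the 9 receptor genes measured in both species, as stacked bars for each library, with FPKM as deposited on the left and FPKM rescaled to the mean library sum on the right. The mouse bars lack Calcoco2, are dominated by Sqstm1 and end at 397 and 407 as deposited, below the ferret bars at 560 and 578.

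Genes that act with the receptors were taken from lists of 42 genes in all, of which 34 were tested. Of these, 4 were called higher and 9 lower in ferret astrocytes, and 21 were not called, against 13.1% and 30.1% of all genes tested, with a median log2 difference of -0.12. After rescaling to the mean library sum, 5 were called higher and 7 lower, against 19.1% and 21.7% of all genes. The median turned to 0.25, beside -0.01 for all genes, so that its sign depends on the scaling. Under both scalings it lay above the median of all genes, which was -0.35 as deposited.

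The lowest log2 difference of these 34 genes was that of a gene of cargo recognition. Galectin-8, encoded by Lgals8, binds sugars exposed on damaged vesicles and recruits CALCOCO2 to bacteria that enter the cytosol. Lgals8 stood at 1.82 and 2.05 FPKM in ferret and at 45.6 and 45.8 in mouse, a difference on the log2 scale of -3.99 (SE 0.070, adjusted p = 4.19e-11 by limma). Lgals8 thus stood higher in mouse, and Calcoco2, which was picked for its difference, higher in ferret. Whether galectin-8 recruits the CALCOCO2 of either species in these cells was not tested. Both ferret values of Lgals8 ranked above 36.5% to 37.9% of the shared genes, and the mouse values above 89.6% to 89.8%.

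In the same list of kinases, adaptors and cargo recognition, 0 of 9 genes tested were called higher and 4 were called lower in ferret, against 13.1% and 30.1% of all genes. Besides Lgals8 these were Tank, an adaptor of TBK1 (5.85 and 5.16 FPKM in ferret, 28.9 and 27.4 in mouse, log2 difference -2.17), Rnf213, a ubiquitin ligase that marks bacteria (2.52 and 2.64 against 7.51 and 6.35, log2 difference -1.14) and Pink1, the kinase that marks damaged mitochondria (29.0 and 32.0 against 60.9 and 64.1, log2 difference -1.01). The largest adjusted p of these 4 genes was 8.19e-07 by limma. After rescaling to the mean library sum, Rnf213 (-0.83) and Pink1 (-0.63) fell short of the call, and Pink1 also did so without ferret replicate 1 (-0.95) or without mouse replicate 2 (-0.98). At an unadjusted p under 0.05 the limma fit had 0 of the 9 genes higher and 8 lower, against 32.5% and 56.5% of all genes. Ulk1, a kinase that starts autophagosome formation, had 7.93 and 8.199 FPKM in ferret and 8.22 and 8.09 in mouse and overlapped between the species (log2 difference -0.01, adjusted p = 0.842 by limma, and 0.33 after rescaling). Tbk1, Azi2 and Tbkbp1, the kinase that phosphorylates the receptors and its adaptors that bind CALCOCO2, had log2 differences of -0.68, -0.23 and -0.86, and Rb1cc1, the scaffold that CALCOCO2 recruits, of -0.89. Of these 4, the sign of Azi2 turned after rescaling, to 0.15.

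The ATG8 family genes with values, whose products all receptors bind, were split. Map1lc3b, also in this list, had no value under that symbol in either species and is not part of the sums. Map1lc3a, which encodes LC3A, was called lower in ferret, at 24.0 and 22.9 FPKM against 75.4 and 79.0 in mouse (log2 difference -1.68, SE 0.060, adjusted p = 3.07e-09 by limma). Gabarap had 159 and 180 FPKM in ferret and 280 and 291 in mouse, and Gabarapl2 had 137 and 141 in ferret and 75.8 and 78.1 in mouse. Gabarapl1 was closest as deposited, at 145 and 146 in ferret and 121 and 125 in mouse (log2 difference 0.24). Rescaling to the mean library sum made Gabarap the closest, at a log2 difference of -0.36, with Gabarapl1 at 0.63. The 4 genes tested summed to 466 to 489 FPKM in ferret and 553 to 573 in mouse astrocytes, with a median log2 difference of -0.26. Both directions turned after rescaling to the mean library sum, to sums of 549 and 554 in ferret and 493 and 498 in mouse and a median of 0.13, and Gabarapl2 was then called higher in ferret (1.23).

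Of 16 other cargo receptors tested, 3 were called higher, 3 lower and 10 were not called, against 13.1% and 30.1% of all genes. Nipsnap1 and Nipsnap2 encode related mitochondrial proteins that gather on the surface of damaged mitochondria and bind autophagy receptors, CALCOCO2 among them, and they moved in opposite directions. Nipsnap1 had 40.2 and 41.8 FPKM in ferret and 11.7 and 13.4 in mouse (log2 difference 1.63, SE 0.073), and Nipsnap2 had 9.31 and 8.68 in ferret and 42.7 and 45.5 in mouse (log2 difference -2.17, SE 0.067). Neither pair of groups overlapped, and the larger adjusted p was 1.35e-08 by limma.

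The receptors of the endoplasmic reticulum were also divided. Retreg1, which bends reticulum sheets, was called higher in ferret at 45.7 and 46.5 FPKM against 15.3 and 16.0 in mouse (log2 difference 1.498), as was Atl3, which acts on tubules, at 67.3 and 69.4 against 29.3 and 30.2 (log2 difference 1.17). Ccpg1, a receptor known from reticulum stress, was called lower in ferret at 14.5 and 13.3 FPKM against 42.8 and 44.9 in mouse (log2 difference -1.59). The largest adjusted p of these was 2.77e-08 by limma. Stbd1, which ties glycogen to autophagy, was called lower at 0.125 and 0.173 FPKM in ferret and 4.35 and 4.77 in mouse (log2 difference -2.27, adjusted p = 2.67e-09). Ncoa4, the receptor of ferritin, was alike in all libraries, between 53.7 and 56.0 FPKM (log2 difference -0.02, adjusted p = 0.722 by limma), although the sign turned after rescaling, at 0.36.

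Of 5 regulators tested that are known to act on receptor genes, 1 was called higher (Hif1a) and 1 lower (Tfeb) in ferret astrocytes. Of all genes, 13.1% and 30.1% were. HIF1A drives transcription of Bnip3 in low oxygen, and Hif1a had 85.1 and 82.7 FPKM in ferret and 20.6 and 20.2 in mouse (log2 difference 1.99, SE 0.057, adjusted p = 7.02e-10 by limma). TFEB activates autophagy and lysosome genes, Sqstm1 among them, and Tfeb had 1.45 and 1.81 FPKM in ferret and 7.27 and 6.90 in mouse (log2 difference -1.62, SE 0.088, adjusted p = 5.65e-08). Whether these levels relate to those of Bnip3 or Sqstm1 was not tested. Keap1, Tfe3 and Foxo3 differed by a log2 value of at most 0.20 in size as deposited, and by 0.55, 0.17 and 0.52 after rescaling, which turned the sign of Tfe3. Nfe2l2 (107 and 110 FPKM in mouse) and Foxo1 (6.89 and 7.34 in mouse) of the same list had no ferret value.

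**Figure D4:**
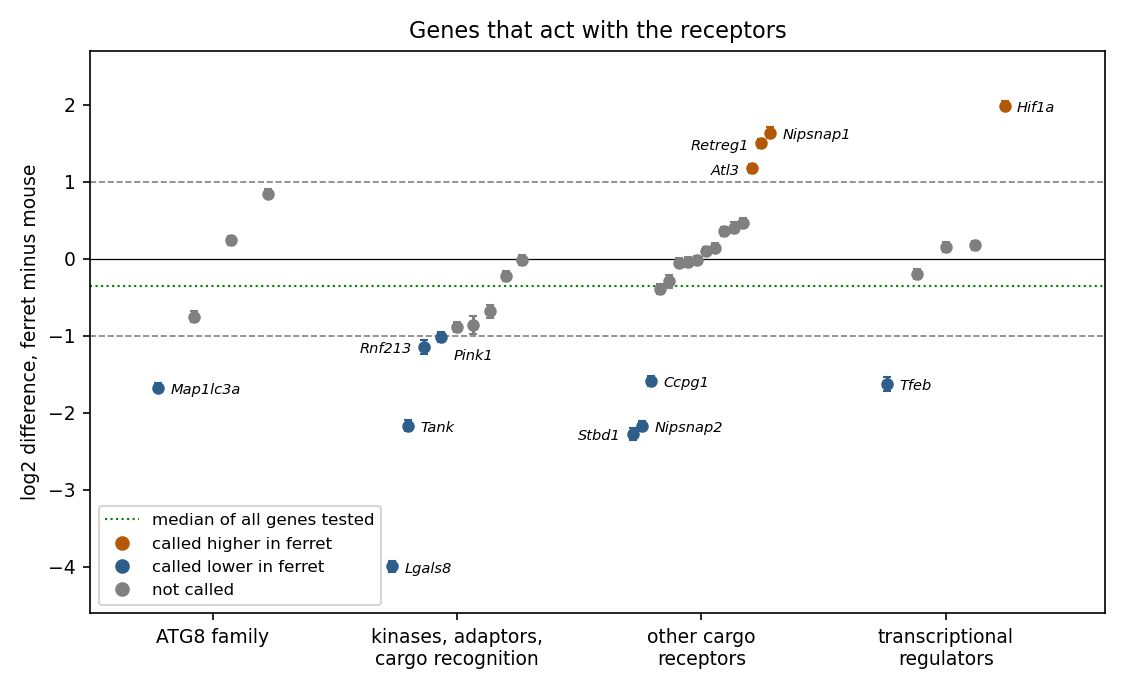
Log2 difference between ferret and mouse astrocytes of the 34 genes of the 4 lists, with error bars of 1 standard error from limma; named points were called higher (orange) or lower (blue) in ferret, grey points were not called, dashed lines mark a difference on the log2 scale of 1 and the dotted line the median of all genes tested (-0.35). Lgals8 lay lowest at -3.99 and Hif1a highest at 1.99.

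The cultures differed in markers of astrocytes and of other cells, and these values stand beside every result above. Of all genes tested, 13.1% were called higher and 30.1% lower in ferret as deposited. These shares were 19.1% and 21.7% after rescaling to the mean library sum. Of 10 astrocyte markers, 1 was called higher in ferret (S100b, log2 difference 2.01), 6 were called lower and 3 were not called, with a summed FPKM of 4693 to 4885 in ferret and 7238 to 7738 in mouse. After rescaling to the mean library sum, 2 were called higher (S100b and Aldoc) and 5 lower, Slc1a3 falling short at -0.77. The astrocyte marker Gfap was between 1429 and 1546 FPKM in all 4 libraries, whereas Slc1a2, the glutamate transporter gene, stood at 0.133 and 0.178 FPKM in ferret and 47.1 and 51.8 in mouse. All 11 microglial markers tested were called lower in ferret, with a summed FPKM of 8.75 to 9.46 in ferret and 567 to 577 in mouse, and Cx3cr1 was listed at 0 in both ferret libraries. All 7 fibroblast markers were called lower as well, with sums of 112 to 126 in ferret and 897 to 946 in mouse. Of 6 oligodendrocyte lineage markers tested, 3 were called higher in ferret and 0 lower, with sums over the 7 genes of 85.9 to 92.6 in ferret and 20.1 to 21.8 in mouse. The neuronal markers gave 1 gene called higher and 0 lower of 2 tested. Their sums were 24.7 in each ferret library and 31.9 to 33.1 in mouse, and overlapped after rescaling. Map2 made up most of them (18.8 and 19.0 in ferret, 30.4 and 31.3 in mouse). Stmn2 of the same list, at 124 and 127 in mouse, had no ferret value, and Tubb3 had none in either species. The endothelial markers gave 0 higher and 2 lower of 2 (0.210 to 0.288 in ferret, 24.3 to 24.9 in mouse). Most of the mouse sum was Cdh5 (22.0 and 22.5). In mouse, Pecam1 (0.0407 and 0.0312) and Cldn5 (0 and 0) were at or near 0, and Kdr and Tek between 0.951 and 1.34. At an unadjusted p under 0.05 by limma, 2 oligodendrocyte lineage markers and 1 neuronal marker were lower in ferret, and 0 endothelial markers were higher. Over all genes at that limit, 32.5% were higher and 56.5% lower in ferret. The part of these cells in the levels of Sqstm1, Lgals8 and the other genes was not tested. A lower share of a cell type and less RNA per cell cannot be told apart in RNA of whole cultures. The paper counted cells by immunostaining in cultures kept in serum, not in the serum-free medium used for the RNA. It found mostly astrocytes in both species, a larger share of microglia in mouse and a few neurons in ferret. Its stains did not include markers of fibroblasts or endothelial cells.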

How the data were processed

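RNA of cultured ferret and mouse astrocytes was sequenced as polyA-selected, stranded libraries, 2 for each species. Per the labels and the methods, the authors aligned reads with STAR (2.7.0f) and deposited FPKM per gene and library from Cufflinks (2.2.1), on the Ensembl annotation of each species. The genome build named in the labels is GRCm38 for the mouse, and mouse coordinates are from GENCODE on that build. Unequal gene models between species enter every value. Steps between the lowest FPKM bear only on the depth of duplicates relative to each other. The modal ratio of these FPKM, replicate 2 over replicate 1, was 1.17 in ferret and 0.829 in mouse. As the FPKM of a fragment falls with depth, a ratio above 1 goes with a shallower replicate 2. The modal bins held 17.8% of the low genes in ferret and 8.29% in mouse. The depth itself was not analysed here, since the values used are FPKM and no counts.

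Symbols were matched in upper case. Where a symbol had several values (7 ferret and 13 mouse symbols), the highest by species mean was taken. Species were compared with limma (3.58.1, R 4.3.3, with a trend) on log2(FPKM + 1), keeping genes whose mean FPKM reached 1 in either species. The fit was tested on simulated data. Members and lists were chosen with earlier results of these data known. Named were all receptors, every called gene of the lists, and the 3 genes nearest to Calcoco2. The gene of each list with the largest and the smallest difference was named too. Further list genes (Tbk1, Azi2, Tbkbp1, Rb1cc1, Gabarap, Gabarapl2, Keap1, Tfe3) were named after their values were seen. So were the markers S100b, Aldoc, Gfap, Slc1a2, Slc1a3, Cx3cr1, Map2, Stmn2, Cdh5, Pecam1, Cldn5, Kdr and Tek. Map1lc3b, Tubb3, Nfe2l2 and Foxo1 were named for lack of a value in a species or in both. Alternatives were a pseudocount of 0.1, no filter, 3 other scalings, a replicate block, no trend, summed values of a symbol and each library left out in turn.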

Additional observations from a re-analysis of the deposited data

How the results depend on the processing

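The 12 alternatives left the calls of 5 of the 8 receptors other than Calcoco2 and of 15 of 17 named genes of the lists as they were. Counts of called receptors moved with the scaling. Called higher in ferret were 3 receptors with library sums set to 1000000, 3 with sums set to their mean and 3 after quantile normalization, and called lower were 0 after either rescaling, against 1 and 1 as deposited. The 2 rescalings multiply ferret values by more than mouse values, by their construction. Over all genes, 2197 were called higher with sums of 1000000 and 2080 after quantile normalization, against 1336 as deposited, and 46.4%, 46.9% and 50.0% of called genes were higher after the 3 scalings, against 30.3% as deposited. The summed FPKM of the other 8 receptors had a log2 ratio of ferret to mouse of -0.05 as deposited and turned to 0.34 after either rescaling, and with Calcoco2 the ratio went from 0.50 to 0.89. Signs turned for Tax1bp1 (0.34 and 0.34 under the rescalings to 1000000 and to the mean sum, 0.28 after quantile normalization), Ulk1 (0.36, 0.33 and 0.41) and Ncoa4 (0.37, 0.36 and 0.32).

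With each library left out in turn, 1 to 2 receptors were called higher in ferret, the second being Fundc1 without ferret replicate 2 or without mouse replicate 2, and 1 was called lower each time. A library left alone in its species was assumed to vary like the others. The difference of Ulk1 then ranged from -0.036 to 0.0064 and that of Ncoa4 from -0.052 to 0.0080, positive without ferret replicate 1. The replicate numbers are shared by name only, since the species have different animals. The deviations of same-numbered libraries from their species means had a correlation of 0.01, and with the replicate block 1 receptor was called higher and 1 lower, as without it. Without read counts, which were not used here, little can be said of values under 1 FPKM, such as mouse Calcoco2.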
